A study of Danio rerio with 49 samples.

Results

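The genes described here encode the chains of type I collagen (col1a1a, col1a1b and col1a2) and the fibronectin paralogs fn1a and fn1b. They were picked by Ensembl identifier from the deposited expression table, and they are 5 of its 40085 genes. All 5 were present in every library. RNA was sequenced from zebrafish spinal cord after a complete transection at the seventh segment, an injury from which this species recovers, and the 49 libraries fall into 10 groups. The groups are the 5 segments rostral and the 5 segments caudal to the lesion taken 1, 2, 4 or 6 weeks after injury (wpi, weeks post injury), with the matching segments of uninjured fish as control. The fish were wild-type animals of the AB strain and of both sexes, 6 to 8 weeks old when used, and the labels name no transgene or drug for any group. Age at collection is not given in the sources used here, so the injured fish may have been older than their controls at sampling. Each group had 5 libraries, except caudal 6 wpi, for which 4 were analysed here (numbered 1, 2, 3 and 5). Each group came from 3 fish and its libraries from pooled tissue, and no label ties a library to a fish, so p-values measure only the spread between libraries, which may be partly technical.

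Type I collagen is the main fibril-forming collagen of skin, bone and loose connective tissue. It is a triple helix of alpha 1 and alpha 2 chains, and bony fish carry a duplicated alpha 1 gene, so that col1a1a and col1a1b both encode alpha 1 type chains beside the alpha 2 chain of col1a2. Fibronectin is a secreted glycoprotein of the provisional matrix laid down in wounds. Cells assemble it into fibrils through integrins, and these fibrils help to organise newly made type I collagen. In the spinal cord of mammals, both proteins are made mainly by fibroblasts of the meninges and vessels and build up in the fibrotic scar, whereas zebrafish rejoin the transected cord.

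Expression is given as FPKM, fragments per kilobase of gene length scaled by a size factor for each library, as given with the processing. Levels of different genes can therefore be set side by side. In the coordinates of the table (danRer11), col1a1a (ENSDARG00000012405) lies on the plus strand of chromosome 3 from 23221047 to 23239458. The gene col1a1b (ENSDARG00000035809) lies on the minus strand of chromosome 12 from 3095699 to 3133483, and col1a2 (ENSDARG00000020007) on the plus strand of chromosome 19 from 40983221 to 41002980. The fibronectin genes fn1a (ENSDARG00000019815) and fn1b (ENSDARG00000006526) lie on the minus strand of chromosome 9 from 15362300 to 15424639 and of chromosome 1 from 5504128 to 5543065. Averaged over the 49 libraries, col1a2 was the highest member at 4.40 FPKM, followed by col1a1b at 2.83, fn1b at 1.69, col1a1a at 1.43 and fn1a at 0.521. The fewest fragments behind a value were 14, for fn1a, and the most 1107, for col1a2. The median number of fragments per library was 72 for fn1a, 136 for col1a1a, 223 for fn1b, 233 for col1a1b and 388 for col1a2, so that fn1a was the least precisely counted member.

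Libraries held between 4359571 and 26940599 fragments on genes (median 19801039), of which 9.25% to 33.4% came from mitochondrial genes. The shallowest was replicate 1 of rostral 1 wpi. Neuronal, radial glial and myelin genes were present in every library, with summed levels of at least 1502 FPKM, 1935 FPKM and 13581 FPKM, and skeletal muscle genes summed to 1.0 to 61.2 FPKM. The libraries numbered 4 and 5 stood apart from those numbered 1 to 3 among the uninjured fish, as given for each member, and the labels name no batch. At 1 wpi they were also the lowest of their group for each collagen chain and fn1a in both regions, though not for rostral fn1b. Every library numbered 4 or 5 held at least 19801039 fragments on genes, and those numbered 1 or 2 held at most 19110043. A single library, caudal 2 wpi replicate 4, held 340.3 FPKM of skin epithelial genes, led by krt97 and krt4, against 0.5 to 37.6 FPKM in the 48 others.

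After injury the collagen chain genes read lower than in uninjured cord, and rostral fn1b read higher. Caudal fn1b had group medians below that of control at 4 and 6 wpi. The calls against control were rostral to the lesion, where col1a1b fell and fn1b rose. Members were tested with limma on log2(FPKM + 0.1) over all libraries of the groups compared, without a term for library number, called the main settings here. A call means an adjusted p under 0.05 over all genes tested. Rostrally, 1 of 5 members was called at 1 wpi, where 9.82% of the genes tested were called, 2 of 5 at 2 wpi (15.1% of genes), 2 of 5 at 4 wpi (6.42%) and 1 of 5 at 6 wpi (4.26%, or 7.13% with the library number as a block). Caudally, 0 of 5 were called at 1 wpi (13.2% of genes), 2 wpi (6.36%), 4 wpi (1.38%) and 6 wpi (0.461%). In these caudal comparisons limma gave an unadjusted p under 0.05 to 3, 0, 1 and 3 members, and voom on recovered fragments called 0 in each. With the library number as a block, 4 of 5 were called at rostral 1 wpi (14.0% of genes) and 5 of 5 at caudal 1 wpi (18.3%). In both, the library numbers did not meet the pairing rule given with the processing. The 4 rostral comparisons with control share their 5 control libraries, as do the caudal ones, so a low or high control library moves a member at each week together.

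The collagen chain genes were at their highest in uninjured cord. In rostral control libraries 1 to 5, col1a1b stood at 7.23, 7.85, 6.12, 4.16 and 2.2 FPKM. In caudal control libraries it stood at 7.54, 5.40, 5.97, 2.41 and 1.98 FPKM. Libraries 4 and 5 were the lowest of their group on both sides for this gene. The same held for the other chains. Rostral control values were 4.34, 3.69, 2.59, 2.26 and 0.779 FPKM for col1a1a and 10.4, 9.59, 9.74, 6.17 and 2.14 FPKM for col1a2. Caudal control values were 3.39, 2.73, 2.64, 1.11 and 1.1 FPKM for col1a1a and 9.84, 7.69, 9.55, 2.96 and 3.34 FPKM for col1a2. Replicate 5 of rostral control was thus the lowest control library for each of the 3 rostral chains, and it decided several of the calls described next.

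After injury, col1a1b was the collagen gene whose rostral difference passed with the main settings. Whether the chains differed from each other in their change was not tested gene by gene. Rostral to the lesion it read 4.73, 2.06, 2.73, 1.59 and 1.22 FPKM at 1 wpi and 2.48, 3.09, 2.40, 1.29 and 2.2 FPKM at 2 wpi. At 4 wpi it read 2.05, 1.48, 0.714, 1.95 and 2.26 FPKM and at 6 wpi 1.53, 2.00, 2.11, 1.65 and 2.14 FPKM. Every injured rostral library was below the control median, and at 6 wpi the groups did not overlap, with the highest injured library under the lowest control. For this and the like counts of libraries given for other members, the share among all genes was not counted. On the log2(FPKM + 0.1) scale, the difference from control was -1.15 ± 0.34 (SE) at 2 wpi (limma adjusted p = 0.0408), -1.61 ± 0.38 at 4 wpi (limma adjusted p = 0.0260) and -1.38 ± 0.31 at 6 wpi (limma adjusted p = 0.0293), with 5 libraries a group. Thus col1a1b fell at 2, 4 and 6 wpi, to group means of 41.6%, 30.7% and 34.2% of the control mean. At 1 wpi the difference was -1.15 ± 0.40, and it did not pass with the main settings (limma adjusted p = 0.0955). It passed there with the library number as a block (limma adjusted p = 0.0143). The calls at 2, 4 and 6 wpi held with the block (limma adjusted p = 0.0208, 0.0479 and 0.0397).

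The other chains gave lower means at each rostral time point, and none passed with the main settings. With the library number as a block, col1a1a and col1a2 passed at 1 wpi (limma adjusted p = 0.0250 and 0.0192), where 14.0% of genes were called. In weeks 1, 2, 4 and 6 the col1a1a libraries spanned 0.465 to 2.13, 0.484 to 2.06, 0.483 to 1.45 and 0.470 to 1.76 FPKM. Those of col1a2 spanned 1.47 to 7.02, 2.26 to 6.24, 1.38 to 5.20 and 1.61 to 4.57 FPKM. The lowest values were not in the same library each week, being replicate 5 at 1 wpi, replicate 4 at 2 wpi, replicate 3 at 4 wpi and replicate 1 at 6 wpi for both genes. For col1a1a the rostral differences at 1, 2, 4 and 6 wpi were -1.16 ± 0.48, -0.89 ± 0.45, -1.40 ± 0.41 and -1.20 ± 0.43 (limma adjusted p from 0.0693 to 0.202). For col1a2 it was -1.14 ± 0.48, -0.64 ± 0.41, -1.19 ± 0.44 and -1.03 ± 0.42 at the same weeks (limma adjusted p from 0.146 to 0.324). All 5 injured rostral libraries were below the control median for each chain at each week, and the ranges of injured and control libraries overlapped for col1a1a and col1a2.

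These results lay near the threshold, so that leaving out 1 library could make or undo a call. Without rostral control replicate 5, col1a1a passed at 1, 2, 4 and 6 wpi (limma adjusted p = 0.0425, 0.0364, 0.00587 and 0.0272), and so did col1a2 (0.0335, 0.0310, 0.0158 and 0.0226). At 1 wpi col1a1b then passed as well (limma adjusted p = 0.0327), as it also did without the shallow rostral 1 wpi replicate 1 (0.0420). Conversely, the col1a1b calls at 2, 4 and 6 wpi were each lost without rostral control replicate 1, 2 or 3, with limma adjusted p from 0.0603 to 0.0894. The call at 2 wpi was also lost without control replicate 4 or without 2 wpi replicate 1, 3, 4 or 5 (up to 0.0925), that at 4 wpi without 4 wpi replicate 2 or 3 (up to 0.0540), and that at 6 wpi without any 1 of the 5 libraries of 6 wpi (up to 0.0749). In each of these fits col1a1b remained lower in the injured cord. The calls also depended on scaling, since after rescaling to equal fragment totals col1a1b did not pass at 2, 4 or 6 wpi (limma adjusted p = 0.202, 0.0921 and 0.161), and with no filter on low values 0 members passed at any rostral week.

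Taken by library number, the collagen differences from control at rostral 1 wpi were alike in both sets, at -1.16 ± 0.37 for col1a1a among the libraries numbered 1 to 3 and -1.15 ± 0.54 among those numbered 4 and 5. At rostral 4 and 6 wpi they were further from 0 among the libraries numbered 1 to 3, and for col1a1b at 6 wpi the values were -1.86 ± 0.24 and -0.66 ± 0.37. The difference between the sets was not tested. At rostral 4 wpi, col1a2 differed from control by -2.10 ± 0.32 among the former (limma adjusted p = 0.0212) and by 0.19 ± 0.54 among the latter (0.907). At the same week col1a1a differed by -2.21 ± 0.32 and -0.19 ± 0.54, and col1a1b by -2.34 ± 0.37 and -0.51 ± 0.35. Mean col1a2 in rostral control was 9.90 FPKM in libraries 1 to 3 and 4.15 FPKM in libraries 4 and 5, whereas at rostral 6 wpi the means were 3.07 and 3.84 FPKM. Whether handling, fish or sequencing set these libraries apart was not tested.

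**Figure D1:**
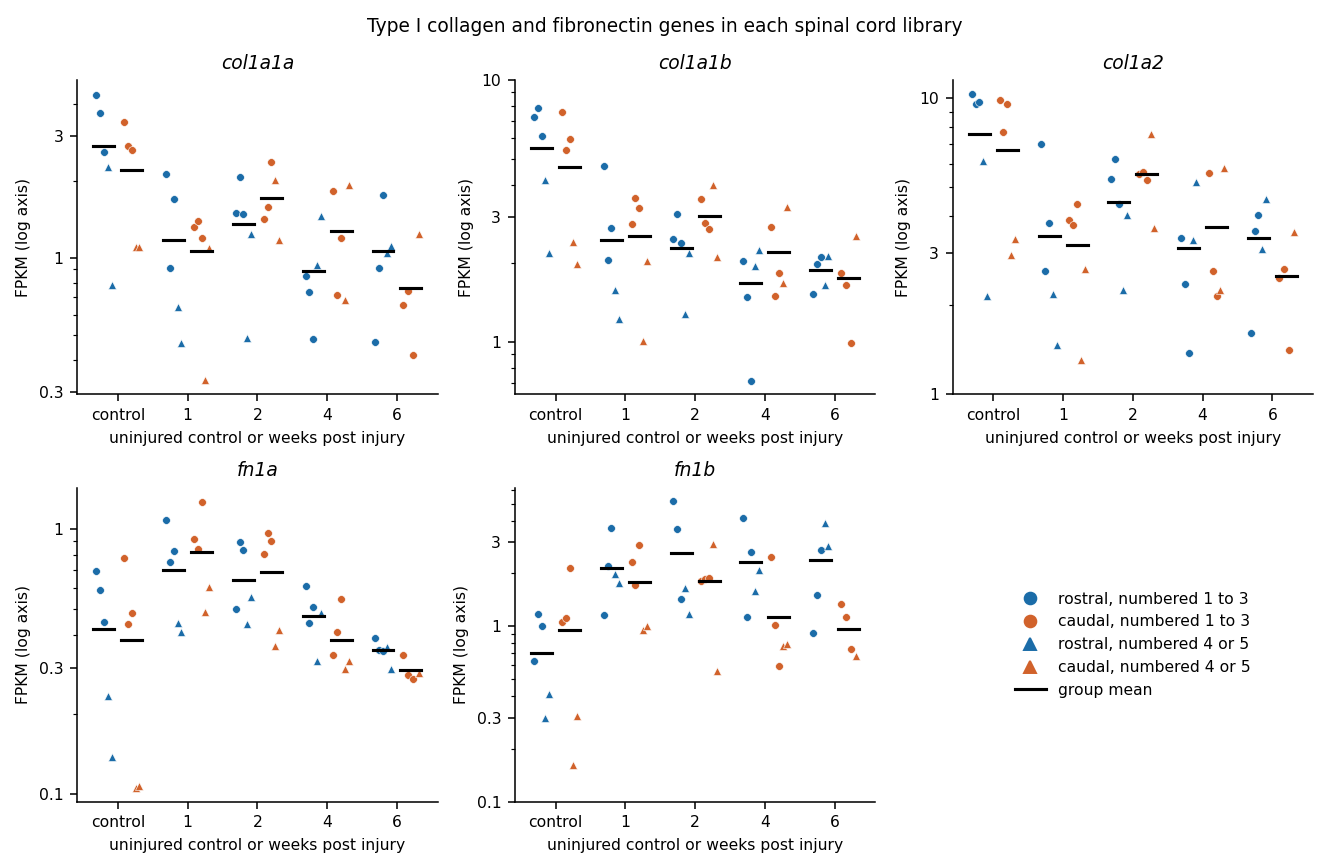
FPKM on a log axis in each of the 49 libraries, for uninjured control and the weeks 1, 2, 4 and 6 after injury, with rostral tissue in blue and caudal in orange, circles for libraries numbered 1 to 3, triangles for those numbered 4 or 5, and black bars for group means. The collagen controls numbered 1 to 3 are at the top of each collagen panel, with control triangles below them, while rostral fn1b moves from 0.300 to 1.18 FPKM in control to mostly higher values after injury.

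Caudal to the lesion, lower collagen means were again seen at each week, and no collagen call was made with the main settings. With the library number as a block, col1a1a, col1a1b and col1a2 passed at 1 wpi (limma adjusted p = 0.0349, 0.0487 and 0.0128), where 18.3% of genes were called. Of 12 alternative settings, the block included, col1a2 passed at 1 wpi in 2. For col1a1b the caudal libraries read 2.82, 3.57, 3.25, 1.01 and 2.04 FPKM at 1 wpi and 3.54, 2.85, 2.71, 3.99 and 2.11 FPKM at 2 wpi. They read 2.75, 1.5, 1.84, 1.69 and 3.3 FPKM at 4 wpi and 1.83, 1.65, 0.998 and 2.55 FPKM at 6 wpi. None of the 19 injured libraries exceeded the control median, and the injured ranges overlapped that of control. The difference from control was -0.79 ± 0.42, -0.46 ± 0.35, -0.93 ± 0.37 and -1.25 ± 0.41 at 1, 2, 4 and 6 wpi (limma adjusted p from 0.238 to 0.503).

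Caudal col1a1a and col1a2 followed a like course. Group means of col1a1a were 2.19 ± 1.04 FPKM (SD) in control and 1.07 ± 0.427, 1.71 ± 0.481, 1.27 ± 0.591 and 0.761 ± 0.343 FPKM at 1, 2, 4 and 6 wpi, with 4 libraries at 6 wpi and 5 elsewhere. Those of col1a2 were 6.68 ± 3.33 FPKM in control and 3.2 ± 1.23, 5.54 ± 1.39, 3.69 ± 1.85 and 2.52 ± 0.868 FPKM after injury. The ranges of injured and control libraries overlapped at each week for both genes. At 2 wpi they came nearest to control, with differences of -0.24 ± 0.34 and -0.13 ± 0.35. At 6 wpi they were furthest from it, at -1.36 ± 0.40 and -1.27 ± 0.41 (limma adjusted p = 0.192 and 0.243). Among the caudal libraries numbered 1 to 3 alone, all 3 chains passed at 6 wpi, with -2.12 ± 0.28 for col1a1a, -2.03 ± 0.28 for col1a1b and -2.04 ± 0.27 for col1a2 (limma adjusted p = 0.0300, 0.0322 and 0.0310). The caudal 2 wpi library with skin keratins was also the highest of its group for col1a1b and col1a2, and without it their differences were -0.56 ± 0.38 and -0.25 ± 0.37, with no call.

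Among the fibronectin paralogs, fn1b passed against control in rostral tissue. Rostral fn1b read 0.630, 1.18, 0.999, 0.300 and 0.414 FPKM in control. It read 1.16, 2.21, 3.61, 1.98 and 1.76 FPKM at 1 wpi and 5.18, 3.59, 1.43, 1.66 and 1.18 FPKM at 2 wpi. All 5 libraries of each of these weeks were above the control median, and 4 of 5 were above the highest control. At 4 wpi fn1b read 4.16, 1.12, 2.66, 1.59 and 2.09 FPKM and at 6 wpi 0.913, 1.51, 2.72, 3.88 and 2.86 FPKM, with the same counts of 5 and 4 of 5. The difference from control was 1.53 ± 0.37 at 1 wpi (limma adjusted p = 0.0241), 1.66 ± 0.44 at 2 wpi (0.0272) and 1.6 ± 0.40 at 4 wpi (0.0339), so fn1b rose at these 3 weeks. At 6 wpi the difference was 1.6 ± 0.42 and just missed the threshold (limma adjusted p = 0.0556). With the library number as a block, where the pairing rule was met, fn1b did not pass at 6 wpi either (limma adjusted p = 0.0845). Group means were 3.04, 3.70, 3.3 and 3.38 times the control mean at 1, 2, 4 and 6 wpi.

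The fn1b calls also lay near the threshold and were lost without some single libraries. At 1 wpi the call was lost without rostral control replicate 4 or 5 (limma adjusted p = 0.0537 and 0.0518) and without 1 wpi replicate 3 or 4 (0.0589 and 0.0515). At 2 wpi it was lost without control replicate 1 or 4 or 2 wpi replicate 1 or 2 (0.0511 to 0.0616). At 4 wpi it was lost without control replicate 1, 4 or 5 or 4 wpi replicate 1, 3, 4 or 5 (0.0515 to 0.0851). At 6 wpi fn1b passed without control replicate 2 (0.0491) or 6 wpi replicate 1 (0.0212). After rescaling to equal fragment totals it passed at all 4 weeks (limma adjusted p from 0.0183 to 0.0327). Across all fits that left out 1 library, the rostral fn1b difference stayed between 1.31 and 1.88. It was also positive in both sets of library numbers. At 6 wpi it was 0.72 ± 0.43 among libraries 1 to 3 and 2.92 ± 0.31 among libraries 4 and 5, whose controls were the lowest.

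Caudal fn1b had means above that of control at each week, and those at 1 and 2 wpi were the highest. It read 1.06, 1.12, 2.13, 0.162 and 0.309 FPKM in control, 2.31, 1.71, 2.90, 0.956 and 1.01 FPKM at 1 wpi and 1.80, 1.86, 1.89, 2.93 and 0.558 FPKM at 2 wpi. At 4 wpi it read 2.48, 1.01, 0.597, 0.768 and 0.797 FPKM and at 6 wpi 1.33, 1.13, 0.745 and 0.674 FPKM. The control libraries spanned more than 10-fold, from replicate 4 to replicate 3, and overlapped every injured group. Above the control median of 1.06 FPKM stood 3, 4 and 1 of 5 libraries at 1, 2 and 4 wpi and 2 of 4 at 6 wpi. The group medians at 4 and 6 wpi, 0.797 and 0.937 FPKM, were below it. Differences were 1.1 ± 0.55, 1.09 ± 0.57, 0.44 ± 0.56 and 0.36 ± 0.57 at 1, 2, 4 and 6 wpi, and none passed (limma adjusted p from 0.211 to 0.883). With the library number as a block, the difference at 1 wpi passed (limma adjusted p = 0.0310). Replicate 1 of caudal 4 wpi, the highest of its group, was also the second of the 49 libraries in skin epithelial genes (37.6 FPKM), and without it the difference at 4 wpi was 0.13 ± 0.56.

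The paralog fn1a was low throughout. Its rostral values were 0.695, 0.589, 0.445, 0.234 and 0.138 FPKM in control and 1.09, 0.751, 0.828, 0.443 and 0.408 FPKM at 1 wpi. Its caudal values were 0.779, 0.439, 0.484, 0.106 and 0.107 FPKM in control and 0.916, 0.840, 1.27, 0.486 and 0.604 FPKM at 1 wpi. In both regions the 1 wpi libraries numbered 1 to 3 were above every control library, while those numbered 4 and 5 were above the controls of the same numbers. At 2 and 4 wpi the rostral ranges were 0.440 to 0.898 and 0.319 to 0.610 FPKM and the caudal ranges 0.361 to 0.971 and 0.296 to 0.544 FPKM, and at rostral 6 wpi the 5 libraries lay between 0.296 and 0.388 FPKM, the narrowest rostral group. Against control fn1a differed by 0.69 ± 0.39 rostrally and 1.1 ± 0.44 caudally at 1 wpi, by 0.61 ± 0.36 and 0.86 ± 0.46 at 2 wpi, and by -0.08 ± 0.35 and -0.07 ± 0.47 at 6 wpi, and no difference passed (limma adjusted p from 0.119 to 0.979).

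With the main settings, the fn1a change that passed was between late and early injury caudal to the lesion. At caudal 1 wpi against control, fn1a passed in 2 of 11 alternative settings (lowest limma adjusted p = 0.0119). Among them was that with the library number as a block (limma adjusted p = 0.0372). At caudal 6 wpi the 4 libraries read 0.336, 0.280, 0.271 and 0.285 FPKM, all below the lowest 1 wpi library. The difference of 6 wpi from 1 wpi was -1.17 ± 0.29 (limma adjusted p = 0.0484), so caudal fn1a fell between these times. It was the single member called of 5 there, where 4.35% of all genes tested were called, or 6.67% with the library number as a block. The call held with the block (0.0405), but it was lost in each of the 9 fits that left out 1 library (limma adjusted p from 0.0515 to 0.142, the latter without 6 wpi replicate 3). Rostrally the same difference was -0.77 ± 0.28 and did not pass (limma adjusted p = 0.214), where 1.61% of all genes were called (4.22% with the block) and 0 of 5 members. There 1 member, fn1a, had an unadjusted p under 0.05, and voom called 0.

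**Figure D2:**
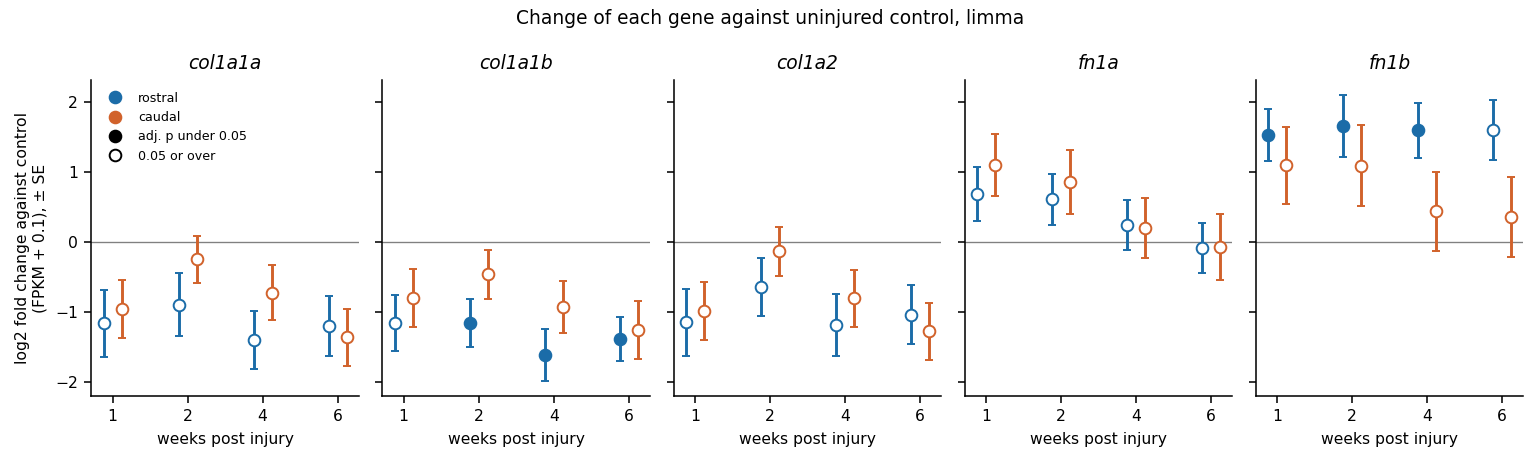
Log2 fold change against control (limma on log2(FPKM + 0.1), points, with SE bars) for each member in weeks 1, 2, 4 and 6 after injury, rostral in blue and caudal in orange, with filled points where the adjusted p was under 0.05. The filled points are col1a1b at rostral 2, 4 and 6 weeks, near -1.15 to -1.61, and fn1b at rostral 1, 2 and 4 weeks, near 1.53 to 1.66.

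The order of group means differed between the genes. Rostral col1a1a ran from control (2.73 FPKM) through 2, 1 and 6 wpi to 4 wpi (0.890 FPKM), and caudal col1a1a from control (2.19 FPKM) through 2, 4 and 1 wpi to 6 wpi (0.761 FPKM). Control was also the highest group for col1a1b and col1a2 in both regions. For fn1b it was the lowest group in both, at 0.704 FPKM rostrally and 0.956 FPKM caudally, whereas for fn1a the highest group was 1 wpi and the lowest 6 wpi. Of the 40 steps between neighbours in these orders, 1 passed, that of rostral fn1b from control to 1 wpi, and the libraries of neighbouring groups overlapped in all 40. For the steps between injured groups, limma called 0.00360%, 0.730%, 0.00713%, 0.269% and 0% of all genes rostrally (2 against 1, 4 against 1, 4 against 2, 6 against 2 and 6 against 4 wpi) and 0%, 4.68%, 0.0392% and 0% caudally (2 against 1, 4 against 1, 4 against 2 and 6 against 4 wpi).

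No member was called between caudal and rostral tissue at the same time. At control, 1, 2, 4 and 6 wpi, 0 of 5 members were called, where 0.0213%, 0.0470%, 0.122%, 0.128% and 0.0319% of genes were called by limma (0.0602%, 0.177%, 1.74%, 0.883% and 0.0319% with the library number as a block). By unadjusted p under 0.05, limma gave 0, 0, 0, 1 and 1 member, and voom called 0 at each time. The member in question was fn1b, whose caudal level was lower than rostral by 1.02 ± 0.40 at 4 wpi (limma adjusted p = 0.624) and by 1.1 ± 0.39 at 6 wpi (adjusted p = 1.00). With the library number as a block, the caudal minus rostral difference of fn1b was -1.02 ± 0.24 at 4 wpi (limma unadjusted p = 0.00288, adjusted p = 0.102). At 6 wpi it was -0.89 ± 0.42 with the block (limma adjusted p = 0.737). Whether injury changed a gene differently on the 2 sides was tested as an interaction. The caudal change in fn1b was less than the rostral by 1.15 ± 0.73 at 4 wpi and 1.24 ± 0.75 at 6 wpi, and neither passed. Without the block, 0 of 5 members and 0% of genes were called at all 4 weeks. In those fits 0 members had an unadjusted p under 0.05, and voom called 0. With the block 0.0106%, 0.360%, 0.483% and 0% of genes were called and again 0 members. The fn1b interaction with the block was -1.15 ± 0.38 at 4 wpi (limma unadjusted p = 0.0107, adjusted p = 0.262). That of col1a1b was 0.69 ± 0.30 at 2 wpi and 0.68 ± 0.26 at 4 wpi (limma unadjusted p = 0.0412 and 0.0234, adjusted p = 0.498 and 0.342). A rostral call for fn1b or col1a1b beside a caudal value that did not pass is therefore not a shown difference between regions.

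Within a library, the 3 collagen genes kept close proportions. Over the 49 libraries the Pearson correlation of log2(FPKM + 0.1) was 0.950 between col1a1a and col1a2, 0.930 between col1a1b and col1a2 and 0.926 between col1a1a and col1a1b. After group means were removed, these values were 0.931, 0.950 and 0.907. With fn1a the collagen genes correlated at 0.310 to 0.319, or 0.599 to 0.666 within groups, and with fn1b at -0.05 to 0.126, or 0.470 to 0.548 within groups. The fibronectin paralogs correlated at 0.530 with each other. The libraries share groups, depth and library number, so these correlations are descriptions.

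**Figure D3:**
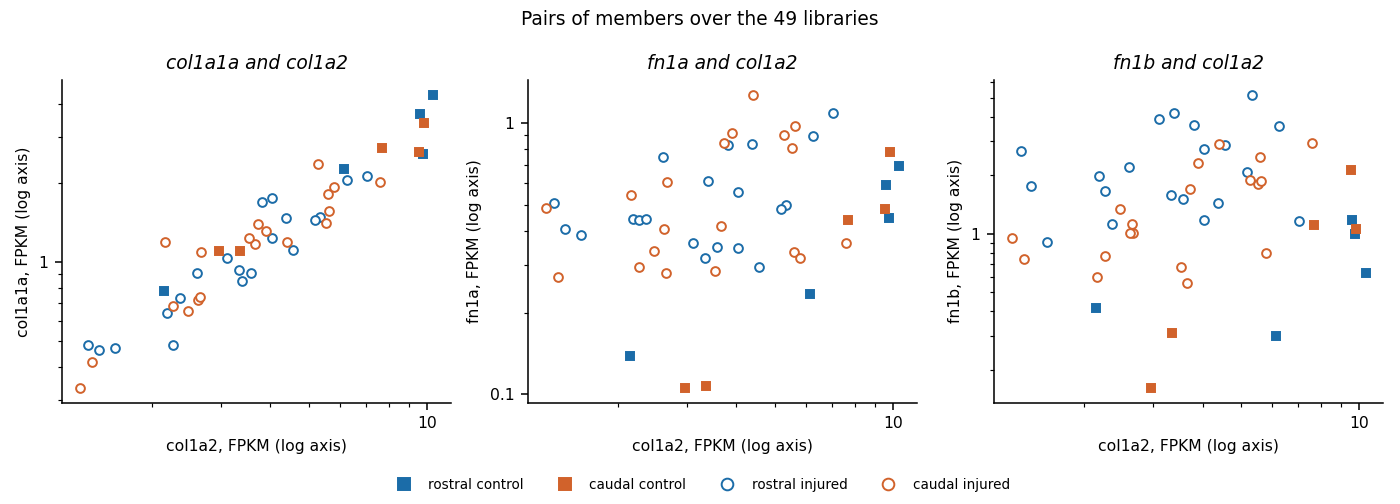
FPKM of col1a1a, fn1a and fn1b against that of col1a2 in each of the 49 libraries, both axes on a log scale, with filled squares for control and open circles for injured tissue. The collagen pair (Pearson correlation 0.950) lies along a line shared by control and injured libraries. In the fn1b panel the rostral control squares lie at 0.300 to 1.18 FPKM and the caudal ones at 0.162 to 2.13 FPKM, overlapping injured libraries.

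The ratio of alpha 1 type to alpha 2 chain transcripts was close to 1. Summed col1a1a and col1a1b over col1a2 gave a log2 ratio of 0.16 ± 0.24 (SD, n = 5) in rostral control and 0.04 ± 0.17 in caudal control. At 2 wpi it was -0.29 ± 0.10 rostrally and -0.21 ± 0.13 caudally, and at rostral 4 wpi it was -0.24 ± 0.15. Rostral libraries at 2 wpi ranged from -0.43 to -0.18 and did not overlap control, which ranged from -0.16 to 0.47. By a two-sided exact permutation test p was 0.00794 rostrally, the smallest that 5 against 5 libraries allow, and 0.0397 caudally, and adjusted over the 16 ratio comparisons the values were 0.0635 and 0.127, so neither passed. At rostral 4 wpi the exact permutation p was 0.0159, or 0.0635 after the same adjustment. A comparison at the smallest possible p cannot pass this adjustment on its own. Not passing therefore does not show an unchanged ratio.

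The ratio of the fibronectin paralogs was not called different from control. The log2 ratio of fn1b to fn1a was 0.79 ± 0.68 (SD, n = 5) in rostral control and 1.61 ± 0.88, 1.83 ± 1.01, 2.19 ± 0.53 and 2.60 ± 0.92 at rostral 1, 2, 4 and 6 wpi. At 4 and 6 wpi the exact permutation p was 0.0159, and 0.0635 after adjustment over the 16 comparisons. Caudally the ratio was 1.21 ± 0.69 in control and between 1.05 and 1.67 in the mean after injury. None of the 16 ratio comparisons passed, and 5 had an unadjusted exact p under 0.05. With so few libraries a single comparison could not have passed this adjustment alone, so no conclusion is drawn from the lack of a call.

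**Figure D4:**
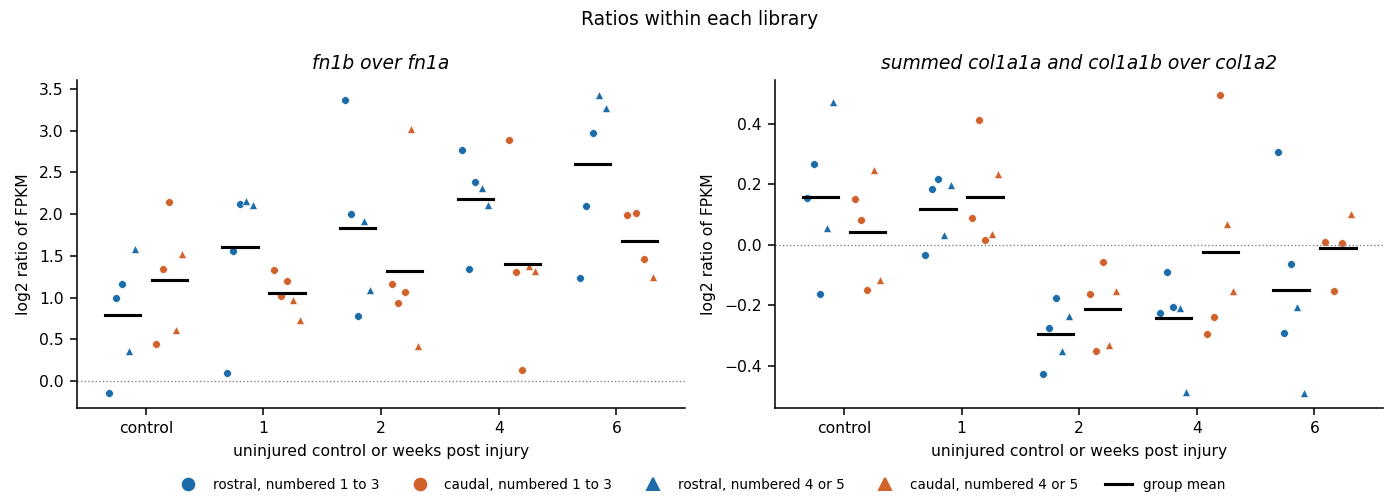
Log2 ratio of FPKM within each library for fn1b over fn1a and for summed col1a1a and col1a1b over col1a2, by control and weeks post injury, with colours and symbols as in the plot of FPKM by library and black bars for group means. Rostral fn1b over fn1a has its highest mean, 2.60, at 6 weeks, and the collagen chain ratio has its lowest rostral mean, -0.29, at 2 weeks.

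Outside the family, the genes whose levels ran most like each member over the 49 libraries were named by Pearson correlation. For col1a1a and col1a1b the nearest gene that is not a collagen chain was pmelb, a paralog of the melanosome matrix gene, at 0.689 and 0.772. For col1a2 it was cnp4l at 0.699. The nearest genes to fn1a were col18a1a (0.837), which encodes a basement membrane collagen, COL5A2 (0.831), a minor fibrillar collagen that sits within type I fibrils, and ITGB1 (0.831), the integrin beta 1 chain. The nearest to fn1b were OLFML3 (0.777), a secreted glycoprotein, PLEKHH1 (0.735) and ADM (0.722), the peptide hormone adrenomedullin.

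Genes that act around these proteins were counted in 5 lists. Among all genes tested, 6.32%, 9.0%, 5.00% and 3.44% rose and 3.50%, 6.14%, 1.43% and 0.823% fell at rostral 1, 2, 4 and 6 wpi. In caudal tissue 7.62%, 4.47%, 1.15% and 0.345% rose and 5.53%, 1.89%, 0.226% and 0.116% fell in the same weeks. Matrix degradation genes gave 37 calls over the 8 comparisons, all higher, and genes for collagen folding, modification and processing also gave 37, of which 20 were higher and 17 lower. Of the matrix degradation genes tested, 8 and 7 of 11 rose rostrally at 1 and 2 wpi and 4 and 2 of 10 at 4 and 6 wpi, and none fell. Caudally 6, 6, 2 and 2 rose at 1, 2, 4 and 6 wpi. The median log2 fold change of the matrix degradation list was 1.68 at rostral 1 wpi and 1.53 at caudal 1 wpi, beside -0.03 and -0.02 for all genes tested. MMP9, a gelatinase that cleaves denatured collagen, rose from 1.80 to 18.4 FPKM in the mean at rostral 1 wpi (log2 fold change 3.26, limma adjusted p = 3.93e-06) and stood at 26.7 FPKM at rostral 6 wpi. CTSK, a lysosomal protease able to cut the triple helix, rose from 3.12 to 31.2 FPKM at caudal 1 wpi (log2 fold change 3.35, limma adjusted p = 2.44e-05). TIMP2 is an inhibitor of matrix metalloproteinases rather than a protease, and 2 identifiers carry its symbol. One of them (ENSDARG00000075261) rose by 2.21 at rostral 1 wpi (limma adjusted p = 0.000600), whereas the other (ENSDARG00000061226) stood at -0.35 there (0.502) and did not pass in any of the 8 comparisons.

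Genes for collagen folding, modification and processing moved in both directions. Of 30 to 32 tested, 3, 7, 3 and 3 rose and 2, 3, 2 and 2 fell at rostral 1, 2, 4 and 6 wpi, and 3, 1, 0 and 0 rose and 4, 2, 1 and 1 fell caudally. The median of the list lay between 0.00 and 0.31 over the 8 comparisons. LOXL2, a lysyl oxidase family member that cross-links collagen, fell from 3.99 to 0.997 FPKM at rostral 1 wpi (log2 fold change -1.92, limma adjusted p = 0.000954) and passed in 7 of the 8 comparisons with control, all but rostral 4 wpi. After rescaling to equal fragment totals it did not pass at 4 and 6 wpi in either region (limma adjusted p from 0.0999 to 0.204). ADAMTS14, a procollagen N-propeptidase, fell from 1.71 to 0.396 FPKM at caudal 1 wpi (log2 fold change -1.95, limma adjusted p = 0.00596). ADAMTS3, of the same enzyme group, rose from 4.71 to 15.02 FPKM at rostral 1 wpi (log2 fold change 1.70, limma adjusted p = 0.00117).

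Among integrins and collagen receptors, 4, 3, 2 and 1 of 16 rose rostrally at 1, 2, 4 and 6 wpi and 3, 1, 1 and 0 of 15 or 16 caudally, with none lower. ITGA5, which pairs with integrin beta 1 as the main fibronectin receptor, rose from 0.600 to 1.24 FPKM at rostral 1 wpi (log2 fold change 0.91, limma adjusted p = 0.0389) and by 1.09 at caudal 1 wpi (0.0201). ITGAV, the alpha chain of vitronectin and fibronectin receptors, rose from 8.88 to 22.5 FPKM at caudal 1 wpi (log2 fold change 1.34, limma adjusted p = 0.00156). DDR1, a receptor tyrosine kinase for collagen, rose by 1.08 at rostral 1 wpi (limma adjusted p = 0.0212).

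Few calls were made among other structural matrix genes, whose lists are too short for a share of 1 or 2 genes to be set apart from the shares of all genes. Of the other fibrillar collagens, 1 of 7 was called in a single comparison, COL2A1 (ENSDARG00000011407), the cartilage collagen, which fell by 1.13 at rostral 2 wpi (limma adjusted p = 0.0454, or 0.180 after rescaling to equal fragment totals). A second COL2A1 identifier (ENSDARG00000069093) read higher after that rescaling and did not pass. It stood at 0.80 at rostral 1 wpi (limma adjusted p = 0.315) and 1.21 at caudal 1 wpi (0.0646). COL5A2 stood at 1.28 FPKM in rostral control and 3.39 FPKM at 1 wpi and did not pass (limma adjusted p = 0.0517), and col27a1b did not pass in any of the 8. Of 22 or 23 matrix partners, 2, 1, 0 and 1 rose and 0, 0, 1 and 1 fell rostrally at 1, 2, 4 and 6 wpi, and limma called 0 caudally, with an unadjusted p under 0.05 for 5, 1, 3 and 4 genes and with 1, 0, 0 and 0 called by voom. At rostral 1 wpi the 2 genes were COL12A1 (ENSDARG00000078322), a fibril-associated collagen (log2 fold change 1.31, limma adjusted p = 0.00648), and THBS1 (ENSDARG00000103775), the matricellular protein thrombospondin 1 (1.35, 0.0148). A second identifier with each of these symbols did not pass there (0.998 for COL12A1 and 0.136 for THBS1). LUM, the collagen-binding proteoglycan lumican, fell by 1.40 at rostral 6 wpi (limma adjusted p = 0.0377, or 0.0885 after the same rescaling).

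**Figure D5:**
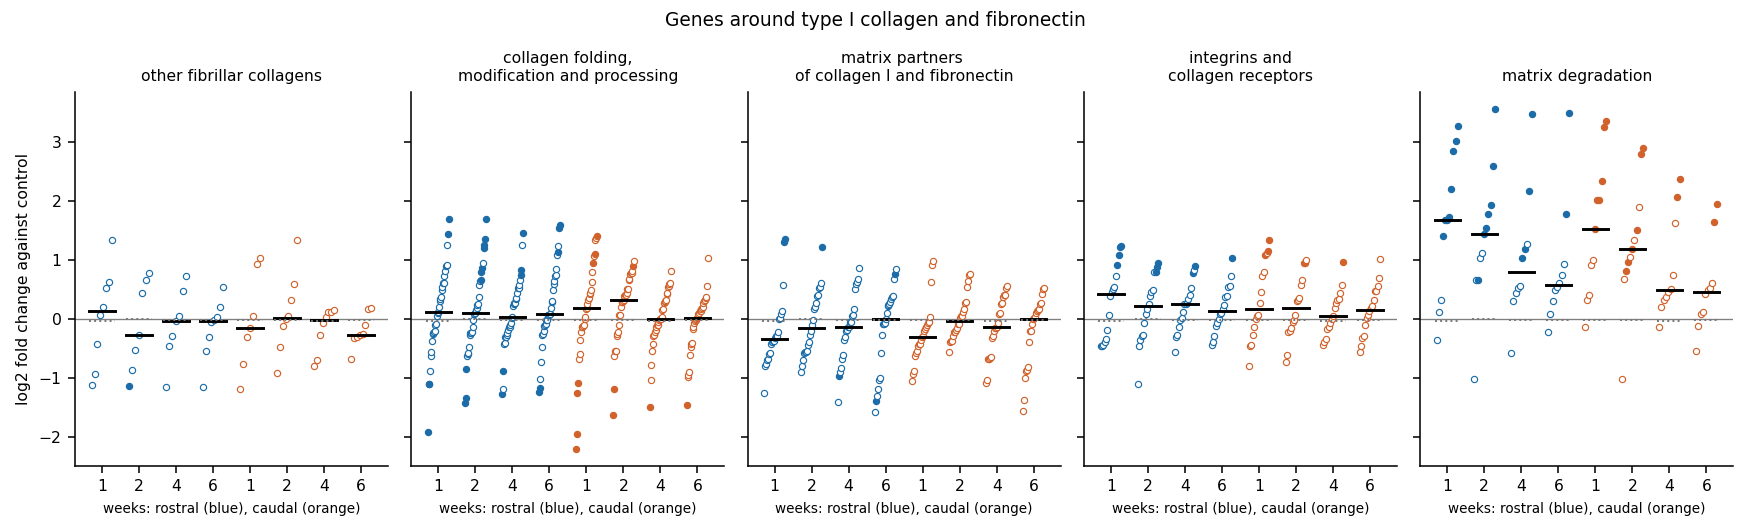
Log2 fold change against control of each tested gene in 5 lists of genes around type I collagen and fibronectin, in weeks 1, 2, 4 and 6 after injury (rostral blue, caudal orange), with filled points where the limma adjusted p was under 0.05, a black bar for the list median and a dotted grey line for the median of all genes tested. Filled points above 0 are most frequent for matrix degradation, whose median was 1.68 at rostral 1 week, and filled points lie on both sides of 0 for collagen folding, modification and processing.

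Tissue samples of this kind hold many cell types, and fewer cells of a type and less RNA per cell cannot be told apart in them. Fibroblast and perivascular genes, whose cells make both proteins, summed to 39.0 to 67.6 FPKM in rostral control and 44.0 to 69.7 FPKM at rostral 4 wpi, with overlapping ranges, and 1, 3, 1 and 2 of 12 or 13 rose rostrally at 1, 2, 4 and 6 wpi while 1 fell at 2 wpi. The sum was 60.3 to 74.7 FPKM at rostral 2 wpi, which also overlapped control. PDGFRA, of the same list, was low in each group (0.42 to 0.56 FPKM in the mean). From rostral control to 2 wpi, mean TAGLN (ENSDARG00000033466) went from 2.06 to 14.6 FPKM, foxc1b from 2.97 to 5.92 and ALDH1A2 from 1.26 to 3.95. Means of PDGFRA, PDGFRB, twist1b, FOXC1 and a second TAGLN identifier (ENSDARG00000045408) were also higher at 2 wpi, the last going from 7.72 to 12.1 FPKM. Means of acta2, NOTCH3, CSPG4, TCF21 and twist1a were lower at 2 wpi, acta2 going from 22.2 to 13.4 FPKM. Among bone markers, whose cells make much type I collagen, SP7 and bglap were at or near 0 (at most 0.05 FPKM in a group mean). The bone list summed to 2.74 to 3.89 FPKM in rostral control and 5.62 to 30.5 FPKM at rostral 1 wpi, where 2 of 7 genes rose. Between these groups mean spp1 went from 0.503 to 6.66 FPKM and mean runx2b from 1.16 to 3.82 FPKM. Means of SP7, ENTPD5 and COL10A1 (ENSDARG00000101535) were lower at rostral 1 wpi. A second COL10A1 identifier (ENSDARG00000054753) went up from 0.1475 to 0.848 FPKM in the mean, PHEX from 0.106 to 0.428 and IFITM5 from 0.217 to 0.301. Macrophage and microglial genes summed to 386 to 2588 FPKM in rostral control and 5624 to 15038 FPKM at 1 wpi, mostly apoeb, and 10 of 12 rose there, as did 9 of 12 caudally. Oligodendrocyte and myelin genes summed to 42275 to 150708 FPKM in rostral control and 16645 to 38896 FPKM at 1 wpi, without overlap, and 3 of 8 fell. In uninjured rostral cord the libraries numbered 4 and 5, low in collagen and fibronectin, were the highest in these myelin genes, at 150708 and 131834 FPKM against 42275 to 82961 FPKM in the others. The part of any of these shifts in the collagen and fibronectin values was not tested.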

How the data were processed

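The 49 RNA-seq libraries of cord segments were placed in 10 groups, and numbered, from their sample labels. The authors deposited FPKM per gene, made from fragment counts and gene lengths, and the labels' processing notes name HISAT2 2.0.5, featureCounts 1.5.0-p3 and danRer11, with no annotation release given in the sources used here. The fragments recovered from FPKM and gene length were whole to within 0.05 fragment in 100% of values. The denominators behind the deposited FPKM followed size factors (coefficient of variation of their ratio 0.353%) and not fragment totals (23.0%), so levels are scaled to a typical gene. Precision is limited by 4359571 to 26940599 fragments per library, and PCR copies are not independent molecules.

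From FPKM, log2(FPKM + 0.1) was fitted with limma 3.58.1 in R 4.3.3 (lmFit, eBayes with trend, two-sided, Benjamini-Hochberg over all genes with a mean of at least 0.1 FPKM in the libraries compared, threshold 0.05). The authors used DESeq2 for this tissue, which needs counts, whereas the deposited values are FPKM. Each week was compared with control and 6 wpi with 1 wpi within a region, caudal with rostral tissue at each time, and the change with injury between regions by an interaction. Ratios within a library were compared with a two-sided exact permutation test. The scripts were tested on simulated data. Differences of same-numbered libraries from their group means correlated above 0.1 in every pair for the caudal against rostral comparisons, for rostral 6 wpi against control and for 6 against 1 wpi in both regions, so the library number pairs the libraries there, as read from the data and not from the labels. The rule was also met at rostral 4 against 2 wpi and at caudal 2 against 1, 4 against 2, 6 against 2 and 6 against 4 wpi. Alternatives were pseudocounts of 0.01 and 1, other filters, quantile normalization, equal fragment totals, no trend, all groups in a single fit, voom on recovered fragments, the replicate block, libraries 1 to 3 or 4 and 5 alone, and leaving out each library.

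The 5 members, the gene lists and the marker lists were chosen with earlier results of these data known. The members were named in every comparison. From each list the 3 genes called in the most of the 8 comparisons with control were named, ties by mean absolute change, and for each member the 3 most correlated genes with a mean of at least 1 FPKM. Symbols came from a reference table that matched 29178 of 40085 identifiers and writes some zebrafish genes with human-style capitals. List entries were matched by symbol, then ignoring case, then without the paralog letter, which can take more than 1 identifier. The members were listed there as col1a1a, COL1A1, COL1A2, FN1 and FN1, and the paralog letters follow the identifiers. Paralogs such as col1a1a and col1a1b, or fn1a and fn1b, could share reads, and whether counting used strand is not given in the sources used here. No sequences are shown.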

Additional observations from a re-analysis of the deposited data

Results flagged for a closer look

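In a group of 4 or 5 libraries, the gap of a library to the nearest other library was divided by the range of the group. A library was singled out where this ratio exceeded Dixon's 95% critical value. Of 70 group values tested, 3 met this, where chance, which singles out about 1 in 20 groups, gives 3.5. Replicate 4 of caudal 1 wpi was low in col1a1a, at 0.332 FPKM against 1.09 to 1.40 FPKM in the 4 others. Replicate 1 of caudal 4 wpi was high in fn1b, at 2.48 FPKM against 0.597 to 1.01 FPKM. Replicate 4 of caudal 2 wpi, the library with the most skin keratin fragments, had a log2 ratio of fn1b to fn1a of 3.02 against 0.42 to 1.16 in the others.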

How the results depend on the processing

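With the full set of libraries, 1, 2, 2 and 1 of 5 members were called at rostral 1, 2, 4 and 6 wpi, 0 in each caudal comparison with control, 1 for caudal 6 against 1 wpi, and 1 of 40 steps between neighbours. With no filter on low values, where 40085 genes were tested, these counts were 0 for all 4 rostral weeks, for caudal 6 against 1 wpi and for the neighbours. With all 10 groups in a single fit they were 3 at rostral 1 wpi, 2 at rostral 6 wpi, 1 at caudal 1 wpi and 2 for the neighbours. A mean of at least 1 FPKM, which leaves fn1a untested, gave 2 at rostral 6 wpi and 0 for caudal 6 against 1 wpi, as did a pseudocount of 1 for the latter (0), and voom gave 2 at rostral 6 wpi. With no trend 1 was called at rostral 2 wpi. Libraries 1 to 3 alone gave 0 at rostral 1 wpi, 1 at rostral 2 wpi, 1 at caudal 1 wpi, 3 at caudal 6 wpi, 0 for caudal 6 against 1 wpi and 0 for the neighbours, and libraries 4 and 5 alone gave 0 at rostral 2 and 4 wpi. Leaving out 1 library gave 0 to 3 called members for the neighbours and in rostral weeks 1, 4 and 6, 0 to 4 in rostral week 2, and 0 for caudal 6 against 1 wpi and every other comparison. The libraries alone or left out give fewer samples, and for the other settings the cause was not tested.

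With the replicate block (the library number), 4 members were called at rostral 1 wpi, where 14.0% of all genes were called, 5 at caudal 1 wpi (18.3%) and 2 of the neighbour steps. The numbers did not meet the pairing rule in the first 2 of these comparisons. Among the other comparisons with control, of 6 with 1 wpi and between regions, the block changed no count of member calls. At caudal 4 against 1 wpi, where the numbers also did not meet the rule, fn1a went from a limma adjusted p of 0.0867 to 0.0395.

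Rescaling to equal fragment totals moved the median of all genes to between 0.19 and 0.31 (log2) and the share of higher calls from 57.9 to 83.6% up to 92.4 to 98.4%, and gave 1 called member at rostral 2 wpi, 1 at rostral 4 wpi and 0 for caudal 6 against 1 wpi. At rostral 6 wpi the count stayed at 1, with fn1b in place of col1a1b. Relative to that median, col1a1b at rostral 2, 4 and 6 wpi stood at -1.12, -1.57 and -1.32 and fn1b at rostral 1, 2 and 4 wpi at 1.54, 1.63 and 1.58. Of 2227 member values under an alternative, 2125 kept their side of the threshold, 35 newly passed and 67 no longer did. No called value changed direction, whereas 122 values uncalled under both settings changed sign, 30 of them in comparisons with control, 16 in those of 6 with 1 wpi and 76 between regions. Counts of all genes called moved by over 1.5 times under some settings. Against control at rostral 1, 4 and 6 wpi they went from 2767, 1825 and 1207 to 5279, 2965 and 2768 with all 10 groups in a single fit, and at caudal 1, 2, 4 and 6 wpi from 3712, 1806, 391 and 131 to 6233, 3199, 1266 and 953. With no filter they were 763 at rostral 6 wpi and 1105, 204 and 53 at caudal 2, 4 and 6 wpi, after rescaling 2367 at rostral 6 wpi and 793 and 692 at caudal 4 and 6 wpi, and with the block 2019 at rostral 6 wpi. Libraries 1 to 3 alone gave 809, 1531, 869 and 173 in rostral weeks 1, 2, 4 and 6 and 680, 665 and 77 in caudal weeks 1, 2 and 4. Libraries 4 and 5 alone gave 458, 31 and 650 in rostral weeks 2, 4 and 6 and 1215, 1 and 0 in caudal weeks 1, 2 and 4. Summed over the 8 comparisons with control, 20 higher and 17 lower calls among the genes for collagen folding, modification and processing became 32 and 6 after rescaling, and 0 of the 197 calls in the lists changed direction under rescaling or quantile normalization. The least counted member was fn1a (median 72 fragments).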

Other observations

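Markers of other cell types were also compared with control by limma. Among 7 astroglial and radial glial genes tested, 1 rose in each of the 8 comparisons and 1 fell at caudal 4 wpi. The gene that rose was FOXJ1, a regulator of motile cilia, with log2 fold changes from 1.42 to 3.51. Among 9 neuronal genes 0 rose, while 1, 2, 1 and 1 fell rostrally and 2, 1, 0 and 0 caudally in weeks 1, 2, 4 and 6. Of these 8 lower calls 6 were of nefla, a neurofilament gene, whose mean went from 442 FPKM in caudal control to 76.6 FPKM at caudal 1 wpi (log2 fold change -2.59, limma adjusted p = 0.00488). The neuronal list had 13 lower calls under quantile normalization and 4 after rescaling to equal fragment totals. Of 6 or 7 cartilage genes, 1 rose in each region in weeks 1 and 2. Of the endothelial (5 or 6 tested), skeletal muscle (5 or 6), skin epithelial (4) and blood (2) genes, limma called 0 in each comparison. Over the 8 comparisons an unadjusted p under 0.05 was reached 4, 4, 3 and 1 times in these lists, and voom called 0, 1, 0 and 0.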
